A study of Drosophila melanogaster with 4 samples.

Results

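The larval head transcriptome of flies carrying a glial glioma together with RNA interference against slo was set against that of Control larvae. The comparison uses 2 of the 4 libraries of the study, 1 library per group, and covers the 11403 of 11880 listed genes that had 10 or more counts in 1 or both of these libraries, called detected here. Control larvae had repo>Gal4, kept in check by tub>Gal80[ts], driving UAS-myrRFP, a membrane-bound red fluorescent protein. The library labelled GliomaxSlo-RNAi, called slo RNAi here, carried UAS-Slo-RNAi as well as UAS-dEGFR[L] and UAS-dp110[CAAX], under the same repo-Gal4 driver with tub-Gal80[ts] and UAS-myrRFP. The other 2 libraries are given beside it as levels: Glioma had the receptor and kinase constructs without RNAi, and the fourth library had UAS-Ca-alpha1T-RNAi in place of UAS-Slo-RNAi. All 4 groups shared the temperature-sensitive repressor, the glial driver and the fluorescent protein. Parents laid eggs for 3 days at 25 °C, the larvae then spent 5 days at 29 °C, and no other treatment was given. All 4 samples have the same batch label, and the labels do not say how many larvae went into a sample.

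Glioma models in flies switch on the epidermal growth factor receptor and the catalytic subunit of phosphoinositide 3-kinase in glia, which makes glial cells multiply and enlarges the larval brain. The slo gene encodes a potassium channel that opens with calcium and depolarisation and is best known from neurons and muscle. The repo driver acts in glia, while a larval head holds neurons, imaginal discs, muscle, cuticle, fat body and, depending on the cut, salivary gland and gut. Late larval heads also go through a programme timed by pulses of ecdysone, the steroid that starts metamorphosis, in which salivary glands make glue and the cuticle prepares for tanning.

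In the slo RNAi library 834 genes were called higher than Control (7.31% of those detected) and 678 lower (5.95%). Those higher included 14 of 29 muscle genes, 5 of 7 lysozymes and 4 of 13 JAK-STAT and Tot stress genes, and those lower 16 of 28 digestive proteases, 9 of 25 ecdysone response genes, 7 of 15 pigment genes and 5 of 7 salivary glue genes. The counts given for each gene list are to be read against these 2 shares. A call needed a ratio of at least 2-fold and a 95% counting interval that left out equality. With 1 library per group there was no replicate check, no test between conditions was made, and the intervals given after log2 ratios cover counting error only. Total counts were 36932553 for Control and 32092414 for slo RNAi, and a CPM here is a count per 1000000 counts of library size, scaled with TMM. Levels in 4 libraries are listed in the order Control, slo RNAi, Glioma and Ca-alpha1T RNAi throughout. The median log2 ratio of all detected genes was −0.01, and the quartiles were −0.3 and 0.32. A ratio of at least 4-fold was reached by 194 genes called higher and 212 called lower, and at least 32-fold by 8 and 21. Of the calls 55.2% were higher, against 41.5% on total counts, 33.5% on the authors' FPKM and 35.9% on their TPM. All ratios on FPKM and TPM were taken after adding 1 to each value, and calls on them used no interval. The added 1 draws ratios of genes at low levels towards 0, so a smaller ratio there need not be a disagreement with the counts. This does not cover genes at higher levels, such as Imp below. On total counts the median of all detected genes was −0.18. Around the count limit, 45 genes had a larger count of exactly 10 and were detected, and 44 had 9 and were not. Around the fold limit, 187 called genes lay within 0.1 above it on the log2 scale and 256 uncalled genes within 0.1 below it.

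**Figure D1:**
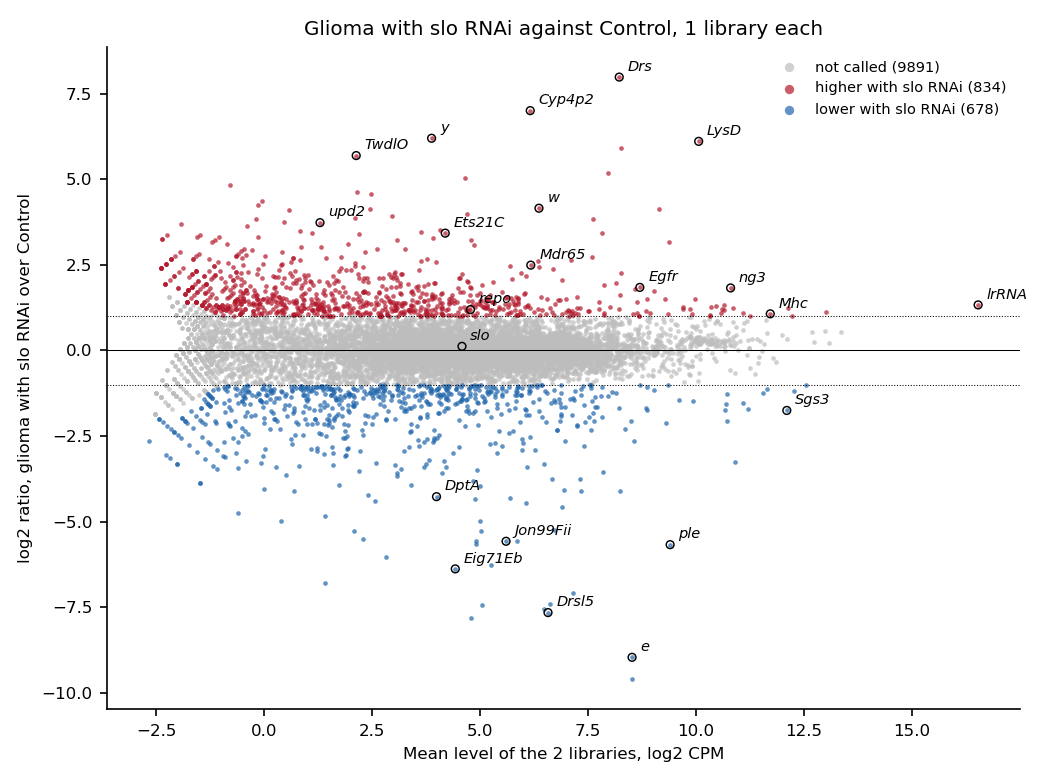
Log2 ratio of glioma with slo RNAi over Control (vertical axis) against the mean level of both libraries in log2 CPM (horizontal axis), 1 point per detected gene, with red for genes called higher, blue for genes called lower and dotted lines at 2-fold. Drs and Cyp4p2 have the highest ratios, CG7924 and e the lowest, and slo lies near 0.

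The construct genes were higher than Control and slo itself was not lower. Egfr, which encodes the receptor, was at 182 CPM in the Control library against 651 with slo RNAi, 897 in Glioma and 962 under Ca-alpha1T RNAi, and its log2 ratio of slo RNAi over Control was 1.84 (1.8 to 1.88). Pi3K92E, which encodes the dp110 kinase subunit, was at 98.6, 373, 903 and 880.3 CPM in the same order, giving a log2 ratio of 1.92 (1.87 to 1.97). All 3 libraries with the constructs were above Control for both genes, and slo RNAi was the lowest of the 3. The rows add endogenous and construct transcripts, which cannot be separated, and 5 other annotated genes overlap Egfr (chr2R:21522420-21559977, build dm6).

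The targeted gene slo (chr3R:24662491-24711595) had 902 counts in the Control library against 753 with slo RNAi, 1208 in Glioma and 1154 under Ca-alpha1T RNAi, which gave 23.0, 25.0, 34.2 and 33.2 CPM. The log2 ratio over Control was 0.12 (−0.02 to 0.26) and its sign turned with the scaling, to −0.06 on total counts and −0.2 on the authors' TPM. The slo RNAi library was thus close to Control, and lower than Glioma and Ca-alpha1T RNAi. A knockdown confined to glia was not measured here, since the sample sums all tissues of the head. Ca-alpha1T, the T-type calcium channel gene, was at 12.9, 17.8, 19.1 and 16.6 CPM, giving a log2 ratio of 0.46 (0.29 to 0.64) for slo RNAi.

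A pair of eye and body colour genes that often serve as transgene markers were far higher. The white gene w was at 8.76 CPM in the Control library against 156 with slo RNAi, 224 in Glioma and 184 under Ca-alpha1T RNAi, giving a log2 ratio of 4.15 (4.0 to 4.32) for slo RNAi. The yellow gene y had 15 counts in the Control library against 876 with slo RNAi, 205 in Glioma and 774 under Ca-alpha1T RNAi, giving a log2 ratio of 6.2 (5.52 to 7.09). Control was the lowest library for both, and for y the 2 RNAi libraries were above Glioma. An annotated gene on the other strand overlaps each of them.

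Glial genes did not move as one. Of 34 detected genes of the glial list 4 were called higher (2 on the authors' FPKM) and 2 lower, with a median log2 ratio of −0.03 beside −0.01 for all detected genes. repo, the homeodomain factor that marks nearly all glia, was at 16.7, 38.2, 36.6 and 40.9 CPM in the 4 libraries, giving a log2 ratio of 1.19 (1.06 to 1.34) that was 0.85 on the authors' FPKM. All 3 libraries with the constructs held more than Control, and they differed little from each other.

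The largest gains among glial genes were in the barrier layer. moody, a G-protein-coupled receptor of the subperineurial glia that seal the blood-brain barrier, was at 26, 139.7, 174 and 129 CPM, giving a log2 ratio of 2.43 (2.33 to 2.53). Mdr65, a drug efflux transporter of the same barrier, was at 21.8, 123, 140.4 and 71.9 CPM, giving a log2 ratio of 2.49 (2.39 to 2.6). Both were lowest in Control, with slo RNAi between Ca-alpha1T RNAi and Glioma. Other genes of the septate junctions, which close the spaces between barrier cells, were not called: of 22 detected genes only these 2 were, with nrv2, a sodium pump subunit, at 0.86 and Gli, gliotactin, at −0.58. Apart from the barrier genes, 20 extracellular matrix genes were detected, with 2 called higher, 1 lower and a median of −0.02. Among them the basement membrane gene vkg, a collagen IV chain, had a log2 ratio of 1.11 (1.03 to 1.19). It was 0.93 on total counts and 0.81 on the authors' FPKM. On total counts 1 matrix gene was called higher, and on the authors' FPKM and TPM none was. The 2 glial genes called lower were e, described with pigment below, and nkt at −2.01.

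Neural genes as a group lay near 0. Of 28 neuronal markers 1 was called higher and 2 lower, with a median of −0.00463. elav, the RNA-binding protein used to mark neurons, had 4570 counts in the Control library against 3259 with slo RNAi, 2307 in Glioma and 3902 under Ca-alpha1T RNAi, giving a log2 ratio of −0.11 (−0.17 to −0.04); it was looked at as the defining marker, outside the rule that names genes. Rbp9, another neuronal RNA-binding protein, was higher at 57.9, 138, 171 and 117 CPM, giving a log2 ratio of 1.25 (1.18 to 1.33). Both genes called lower, ple and Ddc, make dopamine and also serve the cuticle. The defining markers of glia and neurons, repo and elav, were thus present in every library, beside transcripts of muscle, gut and salivary gland.

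Among 26 neuroblast and progenitor genes 1 was called, and the median was −0.33. That gene was Imp, an RNA-binding protein abundant in early neuroblasts. It was at 112 CPM in the Control library against 39.0 with slo RNAi, 142 in Glioma and 161 under Ca-alpha1T RNAi. Its log2 ratio was −1.52 (−1.61 to −1.43), but −0.69 on the authors' FPKM and −0.72 on their TPM. No gene of the list was called on either. Imp was not at a low level, and the reason for this difference was not tested. Only slo RNAi was below Control for Imp in CPM. 2 annotated genes overlap Imp, 1 of them on its strand. chinmo, a transcription factor of the same early stage, was not called at 0.98 (0.92 to 1.05), and mira, which carries fate determinants into daughter cells, was at −0.85.

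Of 35 peptide and brain hormone genes 2 were called higher and 2 lower, 5.71% each way, which is no more than the 7.31% and 5.95% of all detected genes. Nplp2, a neuropeptide-like precursor, was at 37.9, 238, 184 and 163 CPM, giving a log2 ratio of 2.65 (2.57 to 2.73), with Control the lowest library. Eh, eclosion hormone, which starts the moulting behaviour, had 56, 105, 119 and 101 counts and a log2 ratio of 1.28 (0.81 to 1.78), or 0.77 on the authors' FPKM. AstCC, an allatostatin C-like peptide, had 111, 19, 42 and 49 counts, giving a log2 ratio of −2.14 (−2.95 to −1.45), and CCHa1, a peptide of gut and brain, had 38, 13, 37 and 32 counts at −1.14 (−2.2 to −0.23), or −0.52 on the authors' FPKM and −0.95 with a prior count of 5. For Eh the 3 libraries with constructs were above Control, and for AstCC all 3 were below it.

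Most salivary glue genes were below Control, but to unequal degrees. Of 7 glue genes 5 were called lower and none higher, against 5.95% of all genes, and the median log2 ratio was −1.72. The list summed to 25444 CPM in Control, 10141 with slo RNAi, 1126 in Glioma and 1618 under Ca-alpha1T RNAi. Control was thus highest, slo RNAi was second, and the other 2 libraries were far below.

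Sgs5bis was the glue gene farthest from Control, at 3458 CPM in the Control library against 359 with slo RNAi, 169.8 in Glioma and 299 under Ca-alpha1T RNAi, giving a log2 ratio of −3.27 (−3.3 to −3.24). Sgs1 had 40355, 7180, 80 and 228 counts in the same order and a log2 ratio of −2.11 (−2.15 to −2.07), beside −8.82 for Glioma over Control. These 2 log2 ratios share the Control library, as do all ratios set side by side here. Sgs3, a large mucin-like glue protein, was at 6796, 2019, 179.9 and 92.4 CPM, giving a log2 ratio of −1.75 (−1.76 to −1.74).

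Sgs8 and Sgs7, which lie beside Sgs3 on chromosome 3L, had log2 ratios of −1.72 (−1.73 to −1.7) and −1.2 (−1.21 to −1.19). All 3 were highest in Control and second in slo RNAi. Sgs4 was not called, at −0.46 (−0.49 to −0.44), and Sgs5 had 117146, 88217, 6801 and 17904 counts, giving a log2 ratio of −0.03 (−0.04 to −0.02), so that slo RNAi and Control were level for Sgs5 while Glioma and Ca-alpha1T RNAi were lower. Per transcript length, the authors' TPM of Sgs7 was 28968 in Control and 10948 with slo RNAi, and that of Sgs5bis 8550.3 and 769.

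The other salivary secretion genes split in opposite directions. Of 10 detected, 3 were called higher and 3 lower. The 3 higher ones were the new glue genes, small secreted proteins expressed in the gland before the glue genes peak: ng3 had 30890, 84054, 31169 and 3999 counts, giving a log2 ratio of 1.83 (1.81 to 1.84), and ng1 and ng2 had log2 ratios of 1.8 and 1.72. Ca-alpha1T RNAi was the lowest library for ng1, ng2 and ng3, and slo RNAi the highest. The 3 lower ones were Eig71E genes, which the late gland expresses in response to ecdysone.

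Eig71Eb had 1671 counts in the Control library against 15 with slo RNAi, 3 in Glioma and 5 under Ca-alpha1T RNAi, giving a log2 ratio of −6.38 (−7.26 to −5.69). Eig71Ea had 2433, 59, 2 and 7 counts in the same order, giving a log2 ratio of −4.97 (−5.38 to −4.61). Eig71Ee was closer to Control, at 2458, 838, 133 and 653 CPM, giving a log2 ratio of −1.55 (−1.57 to −1.53). For Eig71Ea and Eig71Eb all 3 libraries with constructs were far below Control, with slo RNAi the highest of the 3. In a bulk sample, fewer cells of a tissue and less RNA per cell cannot be told apart, which holds for every tissue list here.

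**Figure D2:**
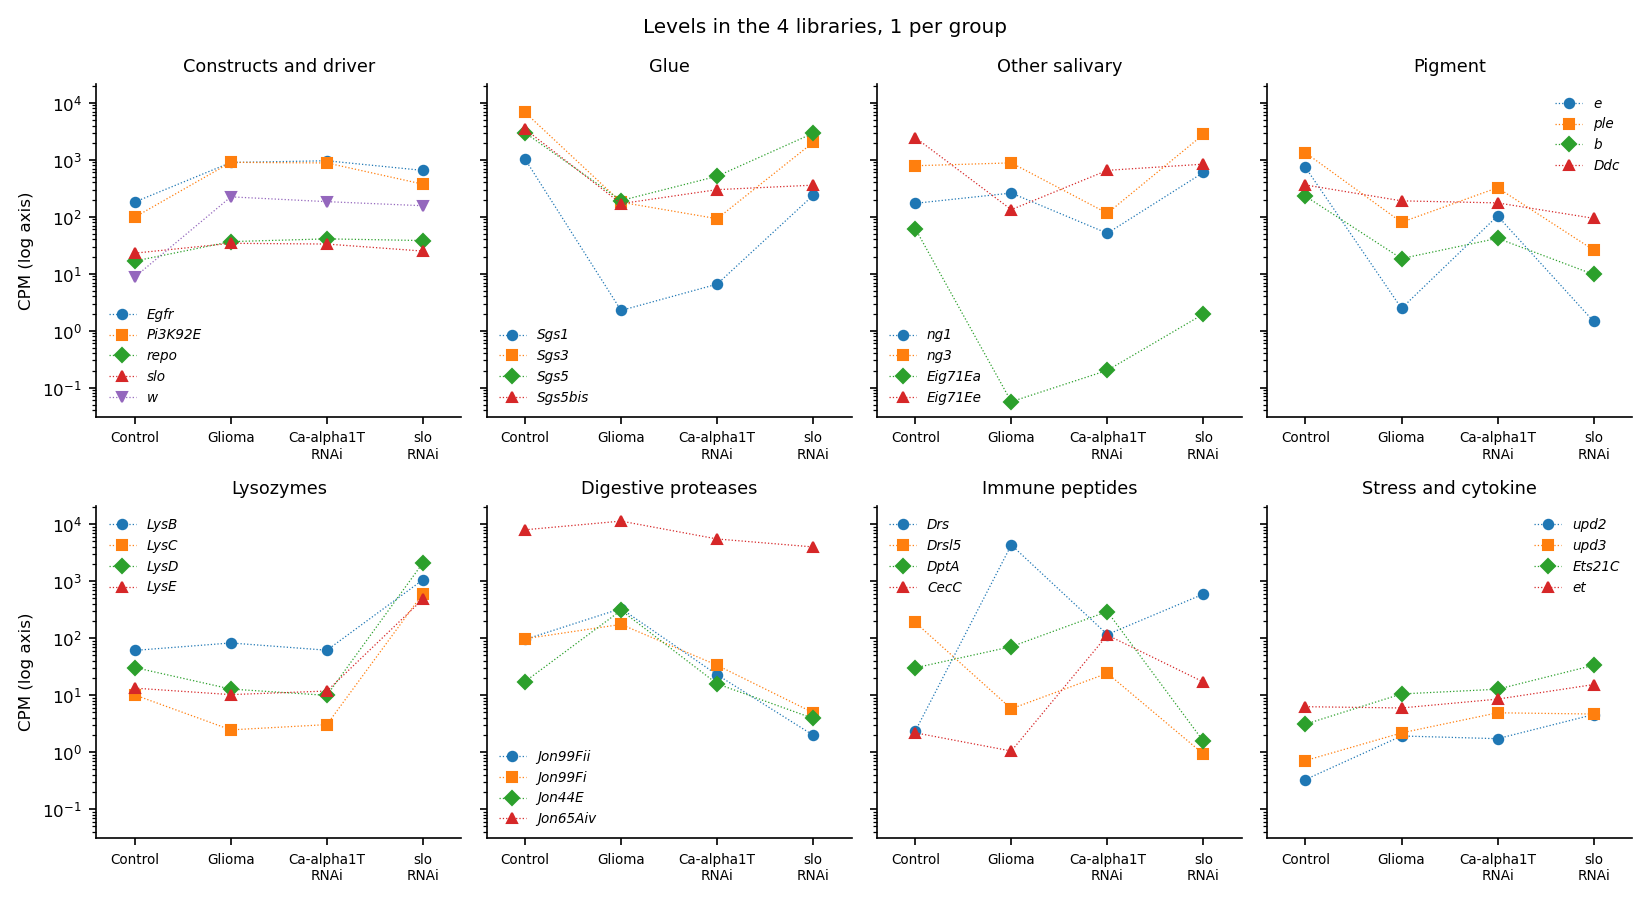
Level in CPM on a log axis (vertical) in each of the 4 libraries (horizontal), 1 point per gene and library, with dotted lines joining points of 1 gene. Glue genes sit highest in Control and second in slo RNAi, the lysozyme genes stand out in slo RNAi, and the pigment genes are lowest there.

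More ecdysone response genes were called lower than higher. Of 25 detected genes 9 were called lower and 2 higher, with a median of −0.52. The genes of the receptor were not among them: EcR, the ecdysone receptor, had 5556, 3723, 3519 and 5210 counts and a log2 ratio of −0.2 (−0.26 to −0.14), and its partner usp had 2452, 1904, 1724 and 2167 counts and 0.02 (−0.07 to 0.1). Both were looked at after their values were seen.

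Nuclear receptors induced by the hormone were the lowest of the list. Eip78C was at 129 CPM in the Control library against 5.90 with slo RNAi, 7.25 in Glioma and 55.0 under Ca-alpha1T RNAi, giving a log2 ratio of −4.44 (−4.67 to −4.23). Hr4 was at 60.4, 3.91, 8.10 and 25.7 CPM and Hr3 at 53.8, 3.85, 4.93 and 18.3 CPM, with log2 ratios of −3.94 (−4.23 to −3.68) and −3.8 (−4.09 to −3.53). Each was highest in Control, then in Ca-alpha1T RNAi, Glioma and slo RNAi. Other annotated genes overlap all 3, on the same strand for Eip78C and Hr3.

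ImpE2 and ImpE3, ecdysone-inducible genes of imaginal discs, were also lower. ImpE2 was at 657, 105, 164 and 243 CPM, giving a log2 ratio of −2.64 (−2.7 to −2.59), and ImpE3 had a log2 ratio of −2.99 (−3.26 to −2.75). Hr38, an orphan nuclear receptor that also responds to neuronal activity, went the other way with 110, 376, 392 and 192 counts, giving a log2 ratio of 2.15 (1.84 to 2.47), and was named after its value was seen. ftz-f1, the receptor of the following prepupal stage, was higher at 1.1 (0.97 to 1.23), with 0.92 on total counts. slo RNAi was the lowest library for ImpE2 and ImpE3, while Control was the lowest for Hr38 and ftz-f1.

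Of 15 genes that make or break down the hormone 3 were called lower. dib and phm, P450 enzymes of the prothoracic gland, had log2 ratios of −2.13 (−2.57 to −1.72) and −1.09 (−1.21 to −0.97), with 55.2, 25.9, 41.0 and 34.4 CPM for phm. Eo, ecdysone oxidase, which inactivates the hormone, had 47, 6, 4 and 3 counts, giving a log2 ratio of −2.5 (−4.11 to −1.36), or −0.49 on the authors' FPKM. sad, the enzyme of a later step, stayed under the limit at −0.95 (−1.07 to −0.83). All 4 genes were highest in Control.

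Pigment and tanning genes included the lowest ratio among genes with a name. Of 15 detected genes 7 were called lower and 1 higher, that one being y, and the median was −0.88. e, ebony, which joins beta-alanine to dopamine in epidermis and glia, was at 734 CPM in the Control library against 1.46 with slo RNAi, 2.46 in Glioma and 104 under Ca-alpha1T RNAi, giving a log2 ratio of −8.96 (−9.43 to −8.55). ple, tyrosine hydroxylase, which makes the precursor of dopamine, was at 1328, 26.1, 80.1 and 323 CPM, giving a log2 ratio of −5.67 (−5.77 to −5.57). Both were highest in Control and lowest in slo RNAi, with Ca-alpha1T RNAi the second highest.

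The enzymes around these steps were lower too. b, black, which supplies beta-alanine, was at 229, 9.72, 18.4 and 41.9 CPM with a log2 ratio of −4.56 (−4.73 to −4.39). Pu, GTP cyclohydrolase, which starts the making of the cofactor of tyrosine hydroxylase, was at 297, 42.6, 44.1 and 101 CPM with −2.8 (−2.88 to −2.72). Ddc, dopa decarboxylase, was at 361, 93.9, 190.3 and 175 CPM with −1.94 (−2.0 to −1.89). All 3 were lowest in slo RNAi. yellow-c, of the yellow family, was at 307, 17.7, 89.2 and 97.5 CPM, giving a log2 ratio of −4.11 (−4.24 to −3.99).

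Many digestive genes were lower than Control. Of 28 digestive proteases 16 were called lower and none higher (57.1% against 5.95% of all genes), with a median of −1.04. The list summed to 29814 CPM in Control, 15574 with slo RNAi, 48476 in Glioma and 20924 under Ca-alpha1T RNAi. The slo RNAi library was thus the lowest and Glioma the highest.

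Jon99Fii, a chymotrypsin-like protease of the midgut, was at 95.3 CPM in the Control library against 1.99 with slo RNAi, 332 in Glioma and 22.9 under Ca-alpha1T RNAi, giving a log2 ratio of −5.57 (−5.97 to −5.21), beside 1.8 for Glioma over Control. Its neighbour Jon99Fi was at 98.2, 4.94, 175 and 33.6 CPM, giving a log2 ratio of −4.31 (−4.56 to −4.08). Ser6, another serine protease, had 262, 24, 620 and 65 counts and −3.04 (−3.74 to −2.46). Each was highest in Glioma and lowest in slo RNAi.

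Other members were nearer to Control. Jon65Aiv was at 8026, 4009.8, 11395 and 5534 CPM, giving a log2 ratio of −1.0 (−1.01 to −0.99), and epsilonTry, a trypsin, at 3226, 1113, 5004 and 1595 CPM, giving a log2 ratio of −1.54 (−1.55 to −1.52). In the authors' TPM Jon65Aiv stood at 12076 in Control and 5228 with slo RNAi. The Jonah and trypsin genes include close copies, so counts may be shared among them.

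Of 24 genes for sugar and lipid digestion and gut lining 11 were called lower and 1 higher, with a median of −0.99. Muc68E, a mucin, was at 113, 2.35, 3.29 and 43.2 CPM, giving a log2 ratio of −5.57 (−5.94 to −5.24), and Mur29B, a mucin-related protein, at 108, 18.2, 48.6 and 88.5 CPM with −2.57 (−2.7 to −2.45). Mal-A7, a maltase, and Npc2e, a sterol-binding protein, had log2 ratios of −2.34 (−2.66 to −2.05) and −1.69 (−1.96 to −1.43). For these 4 genes slo RNAi was the lowest library and Control the highest. The list as a whole summed to 1417 CPM in Control, 891 with slo RNAi, 1869 in Glioma and 1512 under Ca-alpha1T RNAi. Its sum was thus also lowest in slo RNAi, but highest in Glioma.

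The lysozymes, bacterial cell wall enzymes that larvae make mainly in the gut, went against the other digestive genes. Of 7 detected 5 were called higher and 1 lower, with a median log2 ratio of 4.12. LysD was at 30.6 CPM in the Control library against 2111 with slo RNAi, 12.8 in Glioma and 9.95 under Ca-alpha1T RNAi, giving a log2 ratio of 6.11 (6.02 to 6.19). LysC, annotated as a pseudogene, was at 10.1, 609.8, 2.46 and 3.05 CPM with 5.91 (5.77 to 6.06), and LysE at 13.3, 487, 10.3 and 11.8 CPM with 5.19 (5.07 to 5.32). The high level stood in the slo RNAi library alone, and Glioma and Ca-alpha1T RNAi lay below Control for LysC, LysD and LysE.

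LysB was at 61.3, 1065, 82.7 and 61.7 CPM, giving a log2 ratio of 4.12 (4.06 to 4.18). In the authors' TPM with slo RNAi, LysD stood at 5184, LysC at 2970.0, LysB at 2564 and LysE at 990.1. These 4 genes are close copies beside each other on chromosome 3L, LysC and LysD overlap, and mwh spans all of them, so reads may be shared. Others in the family differed: LysS had a log2 ratio of 1.36 (1.29 to 1.43), LysP one of 0.42 (−0.05 to 0.89), and LysX fell from 48 counts to 3, giving a log2 ratio of −3.44 (−5.95 to −1.98). mwh itself was not called, at 0.08 (−0.06 to 0.22), and was looked at after its value was seen.

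**Figure D3:**
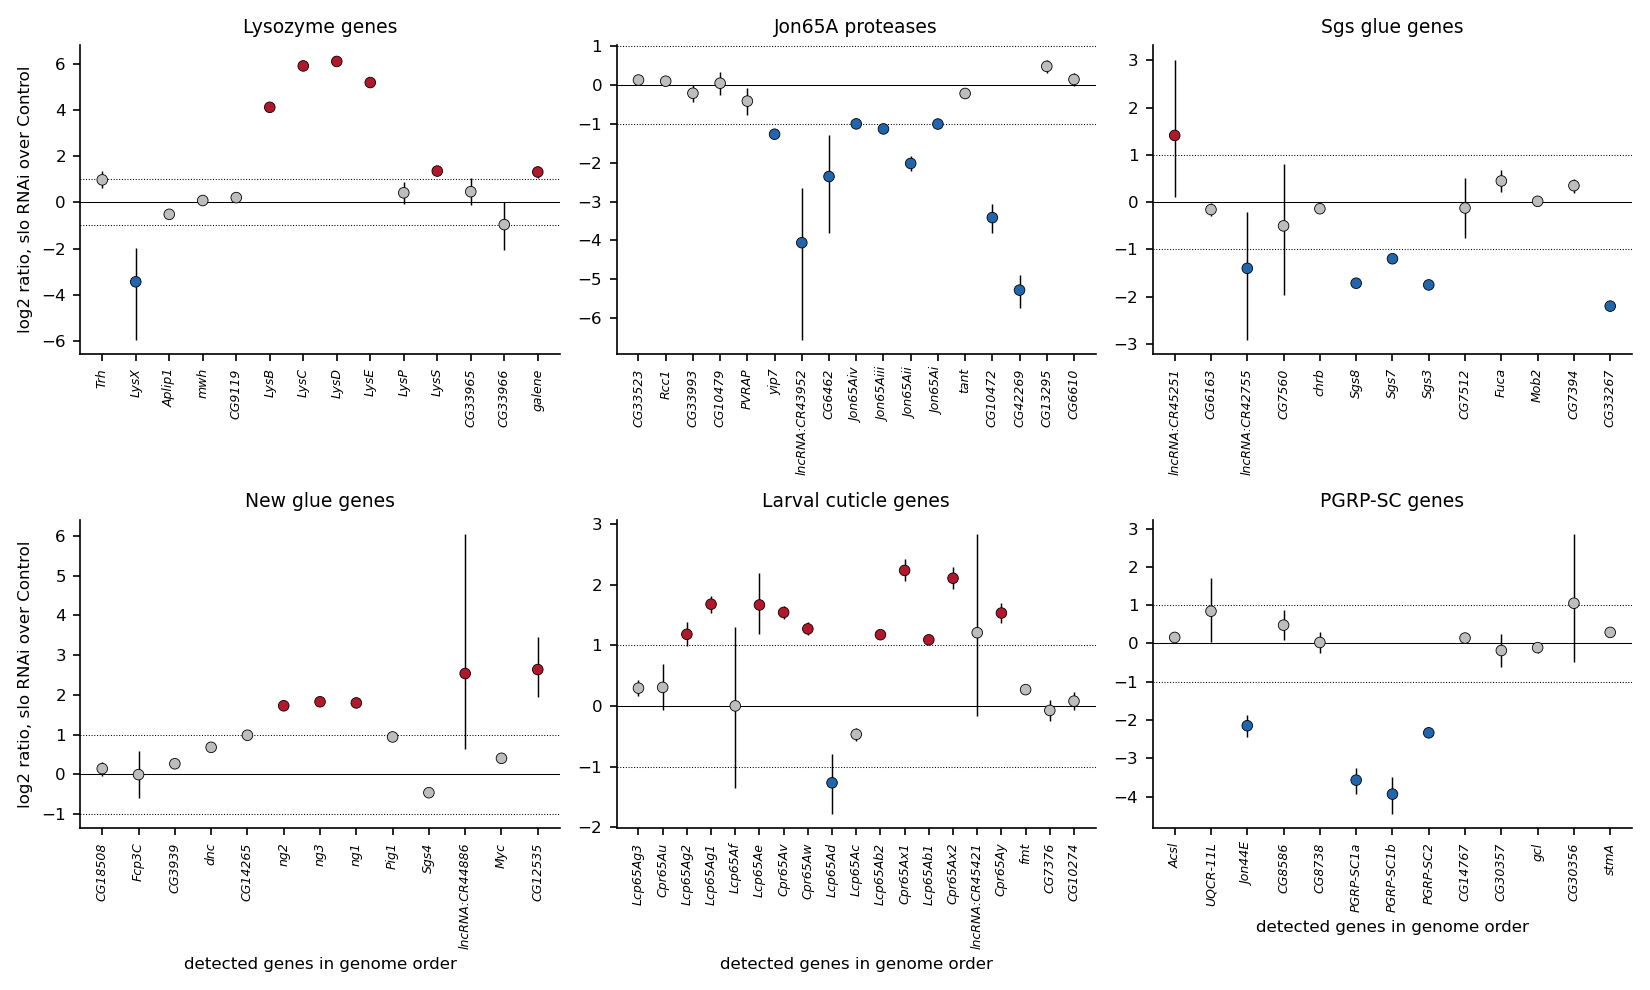
Log2 ratio of slo RNAi over Control (vertical) for detected genes in genome order (horizontal) around 6 gene clusters, with vertical lines for the 95% counting interval, red for genes called higher, blue for genes called lower and dotted lines at 2-fold. The 4 genes from LysB to LysE lie above 4 while their neighbours mwh and CG9119 lie near 0, and the Jon65A, Sgs and PGRP-SC clusters lie below 0.

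Antimicrobial peptides were called in both directions. Of 15 detected antimicrobial peptides 3 were called higher and 5 lower, with a median of −0.81. Drs, the antifungal peptide drosomycin, was at 2.34 CPM in the Control library against 596 with slo RNAi, 4348 in Glioma and 116 under Ca-alpha1T RNAi, giving a log2 ratio of 7.98 (7.7 to 8.3), the largest of all detected genes. All 3 libraries with constructs were above Control, and Glioma held the most. Its relative Drsl5 was at 189.8, 0.929, 5.78 and 24.3 CPM, giving a log2 ratio of −7.65 (−8.27 to −7.14), with Control the highest library.

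The diptericins, which the Imd pathway induces against Gram-negative bacteria, were lower. DptA was at 30.3, 1.56, 71.1 and 294 CPM, giving a log2 ratio of −4.27 (−4.73 to −3.86), and DptB had 256, 23, 784 and 5619 counts, giving a log2 ratio of −3.07 (−3.78 to −2.48). CecC, a cecropin, had 86, 515, 37 and 3954 counts, giving a log2 ratio of 2.96 (2.63 to 3.31). Ca-alpha1T RNAi held the most of all 3 genes, and slo RNAi held less than Control of the diptericins and more of CecC.

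The Bomanins, short peptides induced through the Toll pathway, were scarce in Control: of 6 detected 4 were called higher and none lower. BomS3 had 3 counts in the Control library against 27 with slo RNAi, 37 in Glioma and 414 under Ca-alpha1T RNAi, giving a log2 ratio of 3.33 (1.85 to 5.92), and BomS6 had 14, 30, 30 and 81 counts, giving a log2 ratio of 1.44 (0.52 to 2.51), or 0.86 on the authors' FPKM. No member had 50 counts or more in either library of the comparison, and 1 member was past 2-fold on the authors' FPKM. Dif, a Toll pathway transcription factor, was higher at 18.5, 56.6, 35.5 and 35.3 CPM, giving a log2 ratio of 1.61 (1.49 to 1.74).

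Of 33 recognition and signalling genes 2 were called higher and 4 lower, 6.06% and 12.1%, and the lower ones were all peptidoglycan recognition proteins. PGRP-SC1b, an amidase that degrades bacterial peptidoglycan in the gut, was at 19.96 CPM in the Control library against 1.29 with slo RNAi, 389.8 in Glioma and 27.1 under Ca-alpha1T RNAi, giving a log2 ratio of −3.93 (−4.45 to −3.48). PGRP-SC1a and PGRP-SC2 had log2 ratios of −3.57 (−3.92 to −3.25) and −2.33 (−2.43 to −2.24), and PGRP-SB1 one of −2.93 (−3.81 to −2.22). slo RNAi was the lowest library for all 4, while Glioma was by far the highest for PGRP-SC1a and PGRP-SC1b. The digestive protease list was also lower, while 5 of 7 lysozymes were called higher; the part of the gut in these values was not tested.

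The cytokine genes upd2 and upd3 of the JAK-STAT pathway were higher. Of 13 genes 4 were called higher (2 on the authors' FPKM), none was lower, and the median was 0.65. upd2, a leptin-like ligand, had 13 counts in the Control library against 138 with slo RNAi, 68 in Glioma and 60 under Ca-alpha1T RNAi, giving a log2 ratio of 3.73 (2.97 to 4.73). upd3, a ligand released on damage, had 28, 141, 77 and 171 counts, giving a log2 ratio of 2.69 (2.12 to 3.35). For both genes Control was lowest. et, a short receptor that dampens the pathway, had 247, 464, 211 and 297 counts, giving a log2 ratio of 1.29 (1.07 to 1.52), which was 0.83 on the authors' FPKM, and the stress peptide TotC had 13, 35, 15 and 12 counts with 1.77 (0.86 to 2.85), or 0.77 on that scale.

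Of 24 genes of the JNK and wound list 2 were called higher and none lower, a share of 8.33% beside 7.31% of all detected genes. On total counts and on the authors' FPKM and TPM 1 was called higher. The 2 genes were Ets21C and ftz-f1, which is also counted among the ecdysone response genes above. Ets21C, an ETS transcription factor downstream of JNK, was at 3.11, 33.5, 10.5 and 12.7 CPM, giving a log2 ratio of 3.43 (3.16 to 3.72), with Control lowest and slo RNAi highest. Ilp8, the relaxin-like hormone of damaged discs that delays metamorphosis, had 39, 60, 27 and 20 counts, giving a log2 ratio of 0.99 (0.4 to 1.62) that stayed just under the limit. Timp, a protease inhibitor of the matrix, was at 0.86 and the protease gene Mmp2 at −0.75, both uncalled.

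Most heat shock and chaperone genes were not called. Of 23 genes 5 were called lower, all of them small heat shock genes, and 2 higher, 1 on total counts and on the authors' FPKM. Hsp23 was at 2722 CPM in the Control library against 658 with slo RNAi, 778 in Glioma and 1174 under Ca-alpha1T RNAi, giving a log2 ratio of −2.05 (−2.07 to −2.03). Hsp67Bc, Hsp26 and Hsp67Ba had log2 ratios of −2.69 (−2.86 to −2.53), −2.18 (−2.25 to −2.1) and −1.51 (−1.59 to −1.43). All were highest in Control. Hsp70Bb, an inducible member of the large class, was at 50.4, 336, 417 and 607 CPM, giving a log2 ratio of 2.74 (2.67 to 2.81), with Control lowest; the Hsp70 genes are near-identical copies.

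Of 48 detoxification genes 9 were called higher and 3 lower. Cyp4p2, a cytochrome P450, had 43 counts in the Control library against 4290 with slo RNAi, 45 in Glioma and 93 under Ca-alpha1T RNAi, giving a log2 ratio of 7.0 (6.59 to 7.49). Its neighbour Cyp4p1 had 58, 1464, 124 and 305 counts with 5.03 (4.66 to 5.44), and Cyp4p3 had 165, 257, 531 and 129 counts with 1.02 (0.73 to 1.31), or 0.84 on total counts. Cyp4p1 and Cyp4p2 were far above the other 3 libraries in slo RNAi, whereas Cyp4p3 was highest in Glioma. GstD3, a glutathione transferase, was higher at 2.28 (2.16 to 2.39), and Mdr50, an efflux transporter, lower at −2.49 (−3.07 to −1.99), or −0.94 on the authors' FPKM.

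Muscle genes were higher as a list. Of 29 detected 14 were called higher (48.3% against 7.31% of all genes), none lower, and 28 lay above 0, with a median of 0.99. That median lay at the 2-fold limit, and 6 were called higher on total counts and 5 on the authors' FPKM. The list summed to 25924 CPM in Control, 51962 with slo RNAi, 81998 in Glioma and 33578 under Ca-alpha1T RNAi. Control was lowest and slo RNAi second to Glioma.

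bt, which encodes the giant sarcomere kinase projectin, was at 526, 1489.7, 1753 and 951 CPM, giving a log2 ratio of 1.5 (1.48 to 1.53). TpnC47D, a troponin C, and Mlc2, the regulatory myosin light chain, had log2 ratios of 1.41 (1.37 to 1.45) and 1.24 (1.23 to 1.25). SERCA, the calcium pump of the muscle reticulum, was at 839.6, 1709, 2648 and 1064 CPM with 1.03 (1.01 to 1.05), or 0.85 on total counts. Glioma was the highest library for all 4.

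Genes of energy metabolism lay above 0 but mostly under the limit. All 42 of 42 nuclear-encoded respiration genes lay above 0 with none called, at a median of 0.35; on total counts 34 lay above 0, with a median of 0.17. Of 24 glycolysis genes 2 were called higher (8.33% against 7.31% of all genes), at a median of 0.6. Gpo1, glycerol phosphate dehydrogenase, had a log2 ratio of 1.35 (1.25 to 1.46), and Eno, enolase, one of 1.05 (1.03 to 1.08), or 0.87 on total counts. Gapdh1 lay just outside at 0.98 (0.96 to 1.0). These lists moved beside the muscle list, whose part in them was not tested.

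Transcripts of the mitochondrial genome took a larger share of the slo RNAi library. They were 7.77% of counts for Control, 15.5% for slo RNAi, 8.78% for Glioma and 10.7% for Ca-alpha1T RNAi, most of it lrRNA, the large ribosomal RNA, at 5.75% and 12.8% in Control and slo RNAi. All 14 listed transcripts lay above 0 and 5 were called higher. ND2, a subunit of respiratory complex I, was at 12.3, 43.2, 60.6 and 14.2 CPM, giving a log2 ratio of 1.81 (1.66 to 1.96), and lrRNA had 1.33 (1.33 to 1.33). These transcripts enter the totals of the libraries, and with them left out of the totals 50.9% of calls were higher.

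Fat body genes were called in both directions. Of 25 detected storage and secreted protein genes 7 were called higher and 2 lower, with 2 higher on total counts and 1 on the authors' FPKM. Tsf1, the iron carrier transferrin, was at 150.3, 458, 708 and 356 CPM, giving a log2 ratio of 1.61 (1.56 to 1.65), and Apoltp, a lipid transfer particle protein, had 1.35 (1.18 to 1.52), or 0.58 on the authors' FPKM. Fbp1, the receptor for larval serum proteins that late larvae switch on, was lower at 4243, 1799.7, 395 and 2594 CPM, giving a log2 ratio of −1.24 (−1.25 to −1.22). The other gene called lower was Lip3, a lipase, with a log2 ratio of −3.64, the lowest of the list. Tsf1 was lowest in Control, while Fbp1 was highest there and lowest in Glioma.

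Of 29 lipid and sugar storage genes 4 were called higher and 1 lower. GlyP, glycogen phosphorylase, was at 560.3, 1302, 1727 and 779 CPM, giving a log2 ratio of 1.22 (1.19 to 1.24), just under 2-fold on the authors' FPKM. FASN1, fatty acid synthase, was higher at 1.05 (1.0 to 1.1), or 0.87 on total counts. mag, magro, a lipase secreted into the gut, was lower at 293, 113, 385 and 122 CPM, giving a log2 ratio of −1.37 (−1.42 to −1.31). In the slo RNAi library GlyP and FASN1 were above Control, while the gut lipase was at its lowest of the 4 libraries.

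Larval cuticle genes went both ways. Of 32 detected 9 were called higher (3 on the authors' FPKM) and 5 lower, with a median of 0.43. TwdlO, a Tweedle cuticle protein, had 6 counts in the Control library against 260 with slo RNAi, 4 in Glioma and 247 under Ca-alpha1T RNAi, giving a log2 ratio of 5.69 (4.68 to 7.28), with both RNAi libraries far above the other 2. Lcp65Ab1 and Lcp65Ab2, near-identical larval cuticle genes, were at 1.09 (1.08 to 1.11) and 1.18 (1.16 to 1.2), both under 2-fold on total counts. Edg78E, an ecdysone-dependent cuticle gene, had 3 counts with slo RNAi, giving a log2 ratio of −2.27 (−4.81 to −0.68), or −0.57 on the authors' FPKM. Of the enzymes, Cht5, a moulting chitinase, was lower at −1.87 (−2.0 to −1.74), and Cda5, a chitin deacetylase, higher at 1.61 (1.47 to 1.75). dyl, a membrane protein that shapes cuticle extensions, had 21, 242, 5 and 24 counts, giving a log2 ratio of 3.87 (3.26 to 4.63).

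The pathways of the constructs themselves held few called genes. Of 26 EGFR pathway genes 1 was called lower, stet, a rhomboid-like protease, at −1.11 (−1.68 to −0.58) from 113, 40, 60 and 57 counts. On the authors' FPKM stet was at −0.51 and on their TPM at −0.66, so that no gene of the list was called on either. None of 29 PI3K, insulin and TOR genes was called; Thor, the translation inhibitor, was farthest at 0.63 (0.6 to 0.67). Sesn, sestrin, was at −0.54 and foxo at 0.48. Thor, foxo and the growth brake Sesn thus stayed within 2-fold of Control.

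Channel genes were also mostly within 2-fold. Of 23 potassium channel genes 2 were called higher (8.70% against 7.31% of all genes), the leak channels galene at 1.32 (1.07 to 1.57) and Ork1 at 1.63 (0.91 to 2.44), both under 2-fold on the authors' FPKM. Slob, whose protein binds the slo channel, was at 0.66 (0.39 to 0.93), and sei, an ERG-type channel, at 0.64. Of 20 calcium and sodium transport genes SERCA was the one called, and para, the neuronal sodium channel, was at 0.67.

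Growth and patterning lists lay slightly below 0 with few calls. None of 42 cell cycle genes was called, at a median of −0.13, and CycA, cyclin A, was farthest at −0.61 (−0.69 to −0.54). The medians were −0.41 for Notch, −0.43 for Wnt and −0.31 for Hippo genes, with 1, 1 and 0 called lower. Wnt2, a Wnt ligand, was at 26.9, 10.02, 12.6 and 15.8 CPM, giving a log2 ratio of −1.43 (−1.62 to −1.24). E(spl)malpha-BFM, a Notch target, was at −1.04 (−1.13 to −0.95). No gene was called among 20 ribosome biogenesis and 17 endoplasmic reticulum stress genes.

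Of 16 apoptosis genes 2 were called lower: Dronc, the initiator caspase, at 83.7, 30.1, 32 and 49.8 CPM with a log2 ratio of −1.48 (−1.58 to −1.37), and Dcp-1, an effector caspase, at −1.04 (−1.18 to −0.91). Atg7, the activating enzyme of autophagosome formation, was the one called of 21 autophagy genes, at 50.3, 17.5, 19.97 and 33.6 CPM with −1.52 (−1.66 to −1.38). All 3 were highest in Control, and slo RNAi was the lowest library for each.

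**Figure D4:**
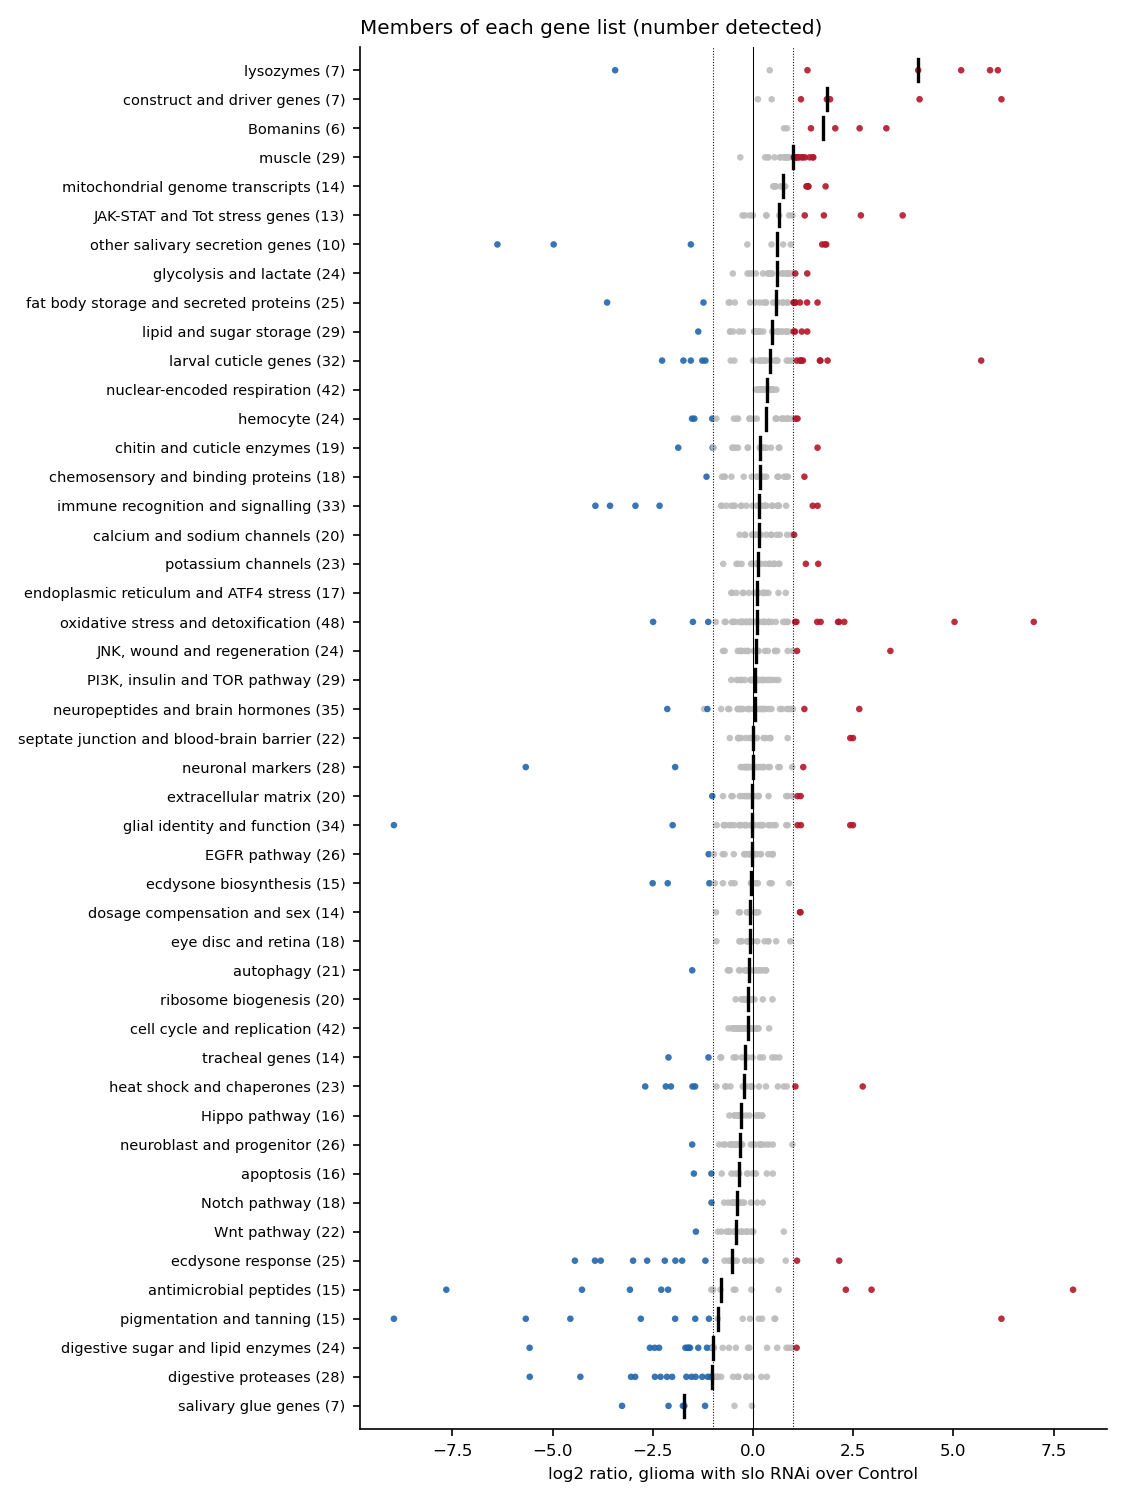
Log2 ratio of slo RNAi over Control (horizontal) for the detected members of each gene list (rows, with the number detected), with red for genes called higher, blue for genes called lower, grey for uncalled genes, black bars for list medians and dotted lines at 2-fold. Lysozymes have the highest median, 4.12, and salivary glue genes the lowest, −1.72.

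Of 24 blood cell genes 2 were called higher and 3 lower, 8.33% and 12.5%, with NimC2, a phagocytosis receptor family member, at −1.52 (−1.7 to −1.35). PPO1, a melanising enzyme of crystal cells, was at 1.06 (0.89 to 1.24), or 0.88 on total counts. Eye disc genes gave no call of 18, and the tracheal list gave 2 lower of 14. fru, a sex determination gene also expressed in neurons, was higher at 1.18 (1.12 to 1.25), or 0.92 on the authors' FPKM.

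A few other genes ranked among the most different. Mrp4, an ABC transporter, was at 25.7 CPM in the Control library against 369 with slo RNAi, 360.1 in Glioma and 523 under Ca-alpha1T RNAi, giving a log2 ratio of 3.84 (3.75 to 3.94), with Control alone low. cep290, a gene of the ciliary base, had 31, 254, 40 and 101 counts, giving a log2 ratio of 3.39 (2.87 to 4.0), or 0.83 on the authors' FPKM. Spn100A, a serpin family member, was at 204, 5.37, 11.7 and 23.5 CPM, giving a log2 ratio of −5.24 (−5.48 to −5.02), and Achl was at 56.2, 2.79, 14.3 and 46.0 CPM with −4.33 (−4.67 to −4.02), both highest in Control. BBIP1 had 208 counts in the Control library against 1 with slo RNAi, 210 in Glioma and 192 under Ca-alpha1T RNAi, so that 1 library alone was near 0, and the log2 ratio was −6.8 (−12.63 to −4.82); another annotated gene overlaps it on its strand. The lowest ratio of all belonged to CG7924, named after its value was seen, with 28590, 28, 39 and 2236 counts and a log2 ratio of −9.59 (−10.2 to −9.08).

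Called genes lay next to each other in places. Runs of 3 or more neighbouring detected genes called in the same direction numbered 25 higher, with 91 genes, and 22 lower, with 77. The longest higher run held 8 His2A and His2B histone genes of chromosome 2L, which are repeated copies whose transcripts mostly lack poly-A tails. Their counts ran from 3 to 55 in Control and from 10 to 98 with slo RNAi. All 8 were under 2-fold on the authors' FPKM and TPM, and reads may be shared among the copies. The longest lower run held 7 genes of chromosome 3L from yip7 to Jon65Ai, at log2 ratios from −4.06 to −1.0. Other runs were the LysB to LysE genes, Cyp4p1 to Cyp4p3, ng1 to ng3, Sgs3, Sgs7 and Sgs8, the PGRP-SC genes, 3 trypsins and the Jon99C proteases.

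By chromosome, genes called higher made up 5.98% of detected genes on X and 8.47% on 2L, and genes called lower 4.26% on X and 7.27% on 3L. The share called higher was 6.73% of protein-coding genes, 19.5% of 313 long non-coding RNAs and 17.3% of 196 antisense RNAs, which were mostly of low level. Of genes with a mean level under 1 CPM 32.2% were called in either direction, against 7.0% of those between 10 and 100 CPM. The sources used here do not say whether the authors' counting used the strand, so antisense counts may hold reads of the opposite gene.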

How the data were processed

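Larval head poly-A libraries, 1 for each of 4 groups, were sequenced; Control and Glioma with slo RNAi were compared. The authors deposited whole-number read counts, FPKM and TPM per gene and library, per the file headers, for 11880 genes, and since the lowest value in any library was 1, genes at 0 in a library are not listed. Per the submitters' processing notes the tools were HISAT2 2.1.0, StringTie 2.1.3b, edgeR, Trimmomatic 0.38 and FastQC 0.11.7, with build dm6; their settings are not given in the sources used here. The table also held 8 per-sample columns that were not used, and the authors' comparisons were not used.

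Counts were scaled with TMM factors over all 4 libraries (edgeR 4.0.16, R 4.3.3), 1.06 for Control and 0.939 for slo RNAi. Log2 ratios added a prior count of 0.5, in proportion to library size, and the 95% interval is the exact conditional binomial interval of 2 counts (Python 3.11.15, scipy 1.17.1). PCR copies are not independent molecules, so it covers counting error only. The rule of size was tested on simulated counts with planted changes and counting error alone. Variation between libraries of the same group was not part of that simulation. At 100 counts in Control the smallest log2 ratio above 0 whose interval left out 0 was 0.42, and at 10 counts 1.18.

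The comparison and the 47 gene lists (1151 entries, 1054 matched) were chosen with earlier results of these data known. A few entries that matched or fitted wrongly (tan, psidin, Ntan1, mbc, Sur-8, Vha100-4) were dropped after values were seen. Genes named are the construct and driver list, the 15 called genes per side whose interval bound is farthest from 0 without bare clone or RNA numbers, up to 5 detected members per list with the largest absolute log2 ratio, and members of runs of 3 or more neighbours. Others, among them defining markers and further members such as Sgs4, Sgs5, LysS and LysP, were chosen after values were seen. Positions come from Ensembl release 115, in dm6 coordinates. Alternatives were DESeq2 1.42.0 size factors, total counts with and without mitochondrial transcripts, TMM over 2 libraries, no filter, 50 counts, 4-fold, a prior count of 5, and the deposited FPKM and TPM values plus 1. A planned promoter motif search was not run, since no genome sequence was used here.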

Additional observations from a re-analysis of the deposited data

How the results depend on the processing

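Requiring 4-fold left 194 genes higher and 212 lower. The authors' FPKM plus 1 gave 252 higher and 501 lower, and their TPM plus 1 gave 321 and 574. The log2 medians of all genes were then −0.17 and −0.18, with 33.5% and 35.9% of calls higher. Total counts gave 640 higher and 902 lower, 41.5% of calls higher and a median of −0.18; without mitochondrial transcripts the counts were 768 and 742. DESeq2 size factors gave 826 and 680, a minimum of 50 counts 587 and 575, and a prior count of 5 gave 755 and 641. All 678 lower calls stood under the 4 other scalings of counts, as did 826 of the 834 higher ones with DESeq2 size factors and 640 on total counts. Of 284 named called genes 21 were under 2-fold on total counts, 93 on FPKM and 79 on TPM. Medians within 0.2 of 0 turned sign on total counts, FPKM or TPM for lists such as potassium channels, septate junction and detoxification genes, and the hemocyte median turned to −0.01 on FPKM. No paired analysis was possible because each group had 1 library, and for the same reason no library could be left out. Depth limits low genes: at 10 counts in Control a log2 ratio above 0 had to reach 1.18 for its interval to leave out 0. The limit for ratios below 0 was not computed.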
